A study of Mus musculus with 6 samples.

Results

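The genes described here are 36 genes of the ATF4 amino acid response. They were taken as a fixed list of symbols, and each was read by its brightest probe set among those annotated to that gene alone. Such a probe set was found for 35 of the 36, out of 18193 genes with one in the whole data set. All 35 passed the filter on low signals, which left 12619 genes in the test. The remaining gene, Pycr1, is absent from the expression results and enters only the promoter search. Transcript levels were measured on 6 mouse arrays in MIN6, an insulin-producing line derived from a mouse beta cell tumour. The cells were electroporated with 100 pmol of siRNA. On 3 arrays this was a control siRNA, and on the other 3 its target was TDP-43, a nuclear protein that binds RNA and is the product of Tardbp. All 6 samples thus share the cell line and the electroporation, and no sample was left without siRNA. The labels do not state whether the 3 replicates of each group were grown as separate cultures, so p-values measure only the spread between these samples, which may be technical. Each value is a mean over the cells of a sample, so fewer responding cells and a smaller response per cell cannot be told apart.

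ATF4 is a basic leucine zipper transcription factor at the end of the integrated stress response. Kinases that sense amino acid shortage, ER stress, haem shortage or viral RNA phosphorylate the initiation factor eIF2, which lowers general translation but raises translation of the Atf4 mRNA. ATF4 protein, often paired with a C/EBP family member, then induces genes that make, import and charge amino acids, along with inhibitors that restrain or end the response. Much of the control of ATF4 acts on its translation, which a transcript array does not read. Beta cells make large amounts of secreted protein, and the pathway is well studied in them.

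C/EBP-ATF pairs bind a composite element whose letters include TGATGNAA, where N is any base. The search covered both strands of RefSeq promoters (GRCm38.p6) from 250 bases before to 50 bases after the start, and 29 of the 36 genes matched a promoter. The letters were present for 12 of these 29 genes (41.4%) and for 4.51% of all 27025 genes with a promoter in the table. For the stricter letters TGATGCAA, which are a subset of the first, the counts were 9 of 29 genes (31.0%) and 1.03% of all genes. The 30 bases around the match are shown for 11 of the 12 genes. These genes share only the searched letters, by which they were picked, and the bases around them differ. Each is written on the strand that reads TGATGNAA, with those 8 bases in capitals.
Asns: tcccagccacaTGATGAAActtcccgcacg
Chac1: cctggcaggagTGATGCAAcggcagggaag
Gars: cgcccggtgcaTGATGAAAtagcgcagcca
Iars: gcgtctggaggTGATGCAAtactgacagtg
Nupr1: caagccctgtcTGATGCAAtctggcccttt
Pycr1: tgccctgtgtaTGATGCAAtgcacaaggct
Slc1a4: caggctggagaTGATGCAAcgcaggaggca
Tars: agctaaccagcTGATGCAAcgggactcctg
Trib3: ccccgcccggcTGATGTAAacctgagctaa
Vldlr: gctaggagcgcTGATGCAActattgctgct
Yars: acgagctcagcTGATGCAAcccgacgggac

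The match lay 200 bases before the start for Vldlr, in the window chr19:27216809-27216838 printed on the minus strand, and 193 bases before the start for Chac1, at chr2:119351038-119351067 on the minus strand. It lay 110 bases before the start for Nupr1 at chr7:126625562-126625591 (plus) and 103 for Pycr1 at chr11:120643833-120643862 (minus). For Gars it was 30 bases before the start at chr6:55037960-55037989 (minus), for Asns 23 at chr6:7693214-7693243 (minus), for Tars 15 at chr15:11399655-11399684 (plus) and for Slc1a4 4 at chr11:20332699-20332728 (plus). In Yars, at chr4:129189895-129189924 (plus), Iars, at chr13:49682126-49682155 (minus), and Trib3, at chr2:152344028-152344057 (plus), it began within the transcript, at its bases 4, 8 and 15. The letters were absent from these windows for all 5 genes of serine synthesis and mitochondrial one-carbon metabolism.

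The full 250 bases before the start are printed for Vldlr and Chac1, whose matches lie farthest from it. Both are on the plus strand, chr19:27216770-27217019 for Vldlr and chr2:119350992-119351241 for Chac1. The capitals mark the same letters read from the other strand.
Vldlr: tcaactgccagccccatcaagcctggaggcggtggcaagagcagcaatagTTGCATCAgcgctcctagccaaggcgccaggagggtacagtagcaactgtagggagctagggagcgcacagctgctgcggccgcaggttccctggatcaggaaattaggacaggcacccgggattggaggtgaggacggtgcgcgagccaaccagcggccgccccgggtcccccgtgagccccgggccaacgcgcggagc
Chac1: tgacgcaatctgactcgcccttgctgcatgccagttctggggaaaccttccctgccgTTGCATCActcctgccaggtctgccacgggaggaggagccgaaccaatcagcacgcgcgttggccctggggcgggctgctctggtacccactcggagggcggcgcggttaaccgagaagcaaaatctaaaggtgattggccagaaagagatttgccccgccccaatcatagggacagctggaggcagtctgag

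The siRNA lowered its target: Tardbp read 3748, 3939.6 and 3699 on the control arrays and 2257, 2249 and 1836 on the TDP-43 siRNA arrays, so that 55.7% of the mean signal was left (-0.85, SE 0.08, limma adjusted p = 0.00187, and 0.000769 to 0.0608 over the alternatives, where 0.0608 is the fit with no intensity trend). The correlation of log2 signals between any pair of arrays was 0.985 to 0.991. Control replicate 3 stood apart for some genes. For Ldha, the lactate dehydrogenase that often follows hypoxia and glycolysis, it read 4780.4 beside 1829 and 1884 on the other control arrays and 4353 to 4547 after TDP-43 siRNA. Results for the 36 genes whose call or sign rests on this array are given with and without it. Of the 8 listed beta cell markers 6 were measured, with summed signals from 51989.5 to 54742 on control and from 52402 to 57802 on TDP-43 siRNA arrays. Of the 8 acinar and duct cell markers 6 had a probe set and 5 of these lay below the filter, Krt7 being the exception. Summed signals were 5450 to 6185 on control and 4934 to 6075 on TDP-43 siRNA arrays. All 8 fibroblast, endothelial and immune markers had a probe set, 6 lay below the filter, and their summed signals were 194 to 304 and 196 to 257. No marker was called. Of the beta cell markers, the zinc transporter gene Slc30a8 was at 0.25 (SE 0.06, limma adjusted p = 0.119) with groups that did not overlap, and it is named after its value was seen.

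The genes of the ATF4 response lay mostly above 0 after TDP-43 siRNA, by modest amounts, but none passed the threshold. A difference is the mean log2 signal after TDP-43 siRNA minus that after control siRNA, taken on signals with 12 added, which understates the change of dim genes, and a gene is called at an adjusted p below 0.05 over all genes. By limma, 0 of 35 were called, where 94 of all 12619 genes (0.745%) were. At an unadjusted p below 0.05 there were 18, all higher, which is 51.4% of the 35 beside 6.75% of all genes. Of all genes 5.87% were lower at that p, and 12.6% were past it in either direction. Of the 35, 32 lay above 0 (91.4%), beside 55.0% of all genes. On 13 genes all 3 TDP-43 siRNA arrays read above all 3 control arrays (37.1%, beside 9.98% of all genes), and on 0 below (8.32% of all genes, and 18.3% in either direction). Without control replicate 3 the first of these counts was 23 of 35, beside 19.6% of all genes. The median difference was 0.19, beside 0.02 over all genes tested. The list was chosen with results of these data in view, and these counts describe it without testing it.

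**Figure D1:**
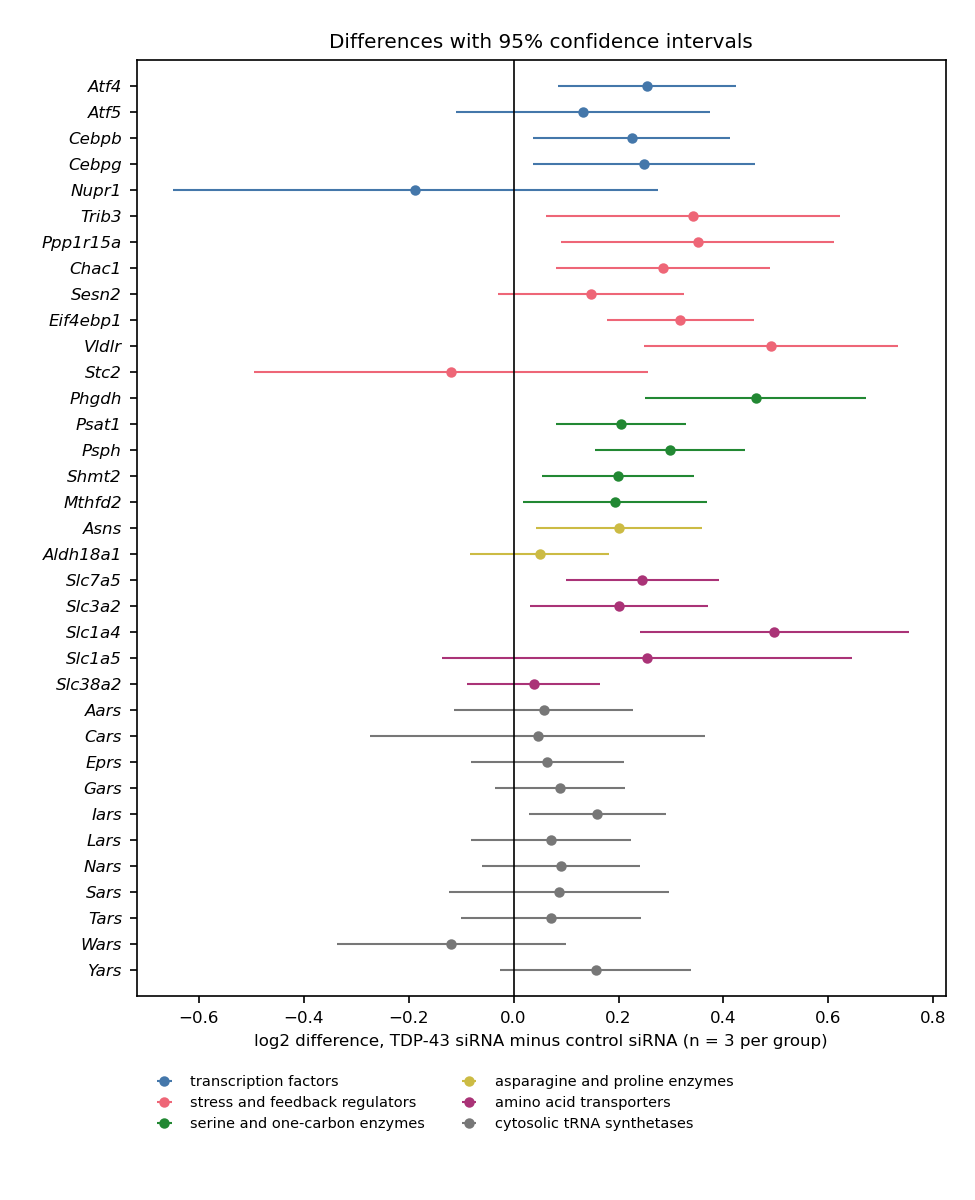
Log2 difference of TDP-43 siRNA minus control siRNA for the 35 measured genes, coloured by role, with 95% confidence intervals of the limma fit (n = 3 per group). The intervals of 18 genes lie above 0, those of 17 include it, and the tRNA synthetases sit closer to 0 than most other roles.

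The interval of the difference lay above 0 for 18 genes and included 0 for the other 17. Its upper bound was below 0.50 for 29 of the 35, and the highest, that of Slc1a4, was 0.75. On the linear scale the mean signal changed by -13.8% (Nupr1) to 41.8% (Slc1a4). The median absolute log2 difference was 0.19 over the 35 genes and 0.10 over all genes tested. It was 0.61 over the 94 called genes, which are large by selection, the smallest being 0.31.

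Among the transcription factors, Atf4 itself read 7353, 7303 and 8067 on control arrays and 8022, 9618 and 9529.5 after TDP-43 siRNA. TDP-43 siRNA replicate 1 fell within the control range and the other two lay above it. That is a log2 difference of 0.25 (SE 0.08), with a 95% confidence interval from 0.08 to 0.42 and a limma adjusted p of 0.189. Cebpg, a C/EBP protein that pairs with ATF4, read 2071, 1842 and 2371 on control arrays and 2307, 2501 and 2639.8 after TDP-43 siRNA, a difference of 0.25 (SE 0.09). Its groups overlapped through control replicate 3.

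Cebpb, another C/EBP partner of ATF4, read 2262, 2058 and 2202 on control arrays and 2563, 2817 and 2272 after TDP-43 siRNA. Its groups did not overlap, though TDP-43 siRNA replicate 3 lay only just above the highest control, and the difference was 0.23 (SE 0.08). Atf5, a close relative of ATF4 under similar translational control, read 2819, 2605 and 3591 on control arrays and 3286, 3048 and 3469.9 after TDP-43 siRNA, and differed by 0.13 (SE 0.11). The highest of its 6 arrays was control replicate 3, without which the difference was 0.27, and without control replicate 2 it was 0.04.

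Nupr1, a small stress-induced chromatin protein, was singled out after its values were seen because it ran against the rest. It read 1132, 1077 and 1878 on control arrays and 1004, 1043 and 1475 after TDP-43 siRNA, a difference of -0.19 (SE 0.21). The third array of each group was the highest. Without control replicate 3 the difference was 0.07, so its sign rests on that array.

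The stress and feedback regulators had a median of 0.32 over 7 genes. Of these, 5 (71.4%) were higher at an unadjusted p below 0.05, beside 6.75% of all genes, and 0 were lower. Eif4ebp1, the repressor of cap-dependent translation 4E-BP1, had the smallest p of the 35. It read 2783, 2577 and 2886 on control arrays and 3413, 3357 and 3508 after TDP-43 siRNA. The groups were well apart, by more than their own spread, and the difference was 0.32 (SE 0.06, limma adjusted p = 0.0582, 95% confidence interval from 0.18 to 0.46).

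Vldlr, the very low density lipoprotein receptor, read 2312, 2413 and 3156 on control arrays and 3493, 3596 and 3905 after TDP-43 siRNA. All 3 TDP-43 siRNA arrays were above the controls, and control replicate 3 lay between the other controls and them. The difference was 0.49 (SE 0.11, limma adjusted p = 0.0865), an increase of 39.5% in mean signal.

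Chac1, which degrades glutathione, read 2614, 2566 and 2798 on control arrays and 2785, 3457 and 3536 after TDP-43 siRNA, so that TDP-43 siRNA replicate 1 again fell within the control range. The difference was 0.29 (SE 0.09). Ppp1r15a, the GADD34 subunit that directs dephosphorylation of eIF2, read 500.3, 415 and 494 on control arrays and 518, 633 and 660.0 after TDP-43 siRNA. Its groups did not overlap, and the difference was 0.35 (SE 0.12).

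Trib3, a pseudokinase that restrains ATF4 and AKT, read 715, 748 and 1023 on control arrays and 989.6, 1056 and 1076 after TDP-43 siRNA, and its signals are given because of the place of control replicate 3, which lay among the TDP-43 siRNA arrays. The difference was 0.34 (SE 0.13). Sesn2, which senses leucine and restrains mTORC1, was at 0.15 (SE 0.08), with groups that did not overlap. Stc2, a secreted glycoprotein, was at -0.12 (SE 0.17), with mean signals of 180.0 ± 30.9 and 165 ± 26.9 (SD, n = 3).

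**Figure D2:**
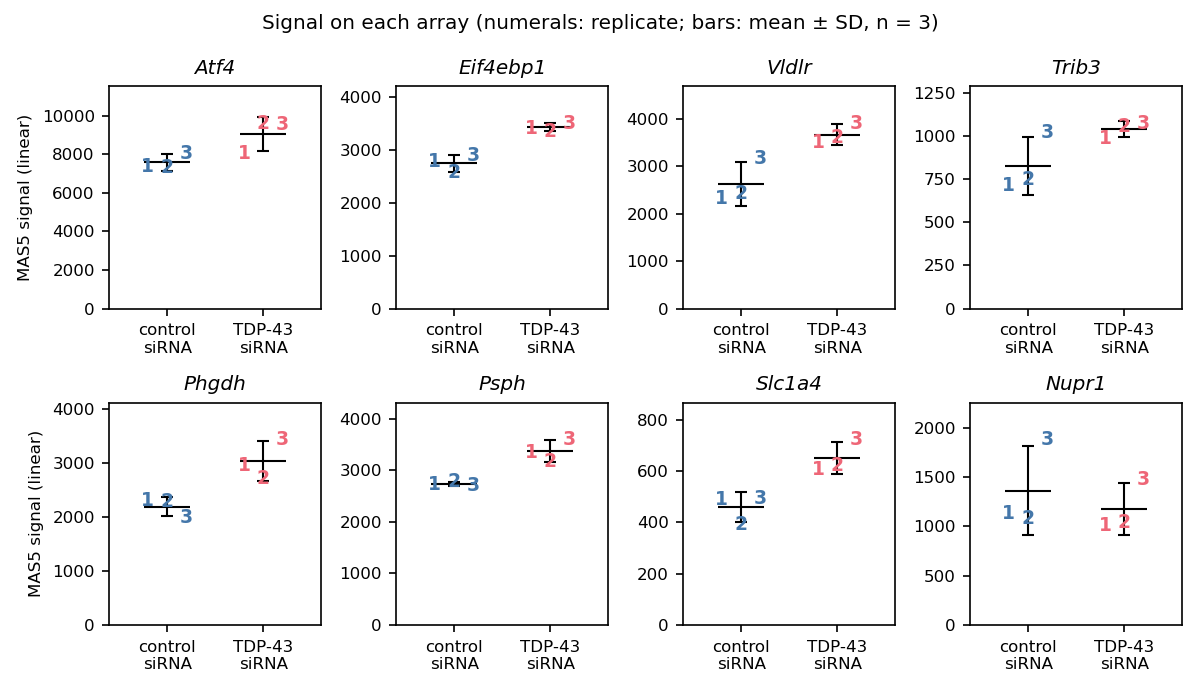
Linear MAS5 signal of 8 genes on each array, with the replicate number as the symbol and the mean ± SD (n = 3) of each group in black. Groups are apart for Eif4ebp1, Vldlr, Phgdh, Psph and Slc1a4. For Atf4, Trib3 and Nupr1 control replicate 3 lies above at least 1 TDP-43 siRNA array.

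Read by their brightest probe sets, enzymes of serine synthesis and mitochondrial one-carbon metabolism were the most even role. All 5 lay above 0, all 5 at an unadjusted p below 0.05, and 4 had groups that did not overlap. Of all genes 55.0% lay above 0, 6.75% were higher at that p and 9.98% were apart and higher. None of the 5 enzymes was called. Phgdh, which commits 3-phosphoglycerate to serine synthesis, read 2304, 2295 and 1993 on control arrays and 2954, 2719.6 and 3439 after TDP-43 siRNA. The gap between the groups was wide and control replicate 3 was the lowest array, so it pulled the group means apart here. The difference was 0.46 (SE 0.09, limma adjusted p = 0.0667).

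Psph, the phosphatase of the last step to serine, read 2719.6, 2786 and 2698 on control arrays and 3346, 3164 and 3594 after TDP-43 siRNA. The controls agreed closely and all 3 TDP-43 siRNA arrays lay above them, with a difference of 0.30 (SE 0.06, limma adjusted p = 0.0819). Psat1, the transaminase between Phgdh and Psph, read 7746, 7846 and 7844 on control arrays and 8479, 8979 and 9591 after TDP-43 siRNA, a difference of 0.20 (SE 0.06).

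Shmt2, the mitochondrial enzyme that splits serine to give glycine and a one-carbon unit, read 2532, 2661 and 2407 on control arrays and 2969, 2772 and 2987 after TDP-43 siRNA. Its difference was 0.20 (SE 0.06), with groups that did not overlap, and averaging its 4 probe sets gave 0.00287. Mthfd2, the next mitochondrial folate enzyme, was at 0.19 (SE 0.08), with mean signals of 4649 ± 431 and 5310.2 ± 374 (SD, n = 3) and overlapping groups.

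Asparagine and proline synthesis were represented by Asns and Aldh18a1. Asns, asparagine synthetase and a classic amino acid response gene, read 8704, 8317 and 9296 on control arrays and 9266, 9953 and 11081 after TDP-43 siRNA. The groups overlapped by a narrow margin between control replicate 3 and TDP-43 siRNA replicate 1, and the difference was 0.20 (SE 0.07). Its other probe set, whose probes can read more than 1 transcript, was at 0.31 (SE 0.08), with groups that did not overlap. Aldh18a1, which makes the proline precursor pyrroline-5-carboxylate, read 4477, 4447 and 4018 on control arrays and 4497, 4452 and 4431 after TDP-43 siRNA. Control replicate 3 was the low array, the difference was 0.05 (SE 0.06), and without that array it was -0.000655.

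All 5 amino acid transporters lay above 0, 3 of them at an unadjusted p below 0.05 and with groups that did not overlap. Beside this, 55.0% of all genes lay above 0, 6.75% were higher at that p and 9.98% were apart and higher. Slc1a4, the ASCT1 carrier of alanine, serine and cysteine, read 491, 391 and 495 on control arrays and 607, 623 and 723 after TDP-43 siRNA. It had the largest difference of the 35 genes, 0.50 (SE 0.12, limma adjusted p = 0.0977). Slc7a5, the LAT1 chain that exchanges large neutral amino acids, read 2693, 2790.4 and 2447 on control arrays and 3159, 3096 and 3138 after TDP-43 siRNA, a difference of 0.25 (SE 0.07).

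Slc3a2, the heavy chain that partners LAT1, read 3489, 3176 and 3653 on control arrays and 3654, 3956 and 4263 after TDP-43 siRNA. The highest control and the lowest TDP-43 siRNA array were almost equal, and the difference was 0.20 (SE 0.08). Slc1a5, the glutamine carrier ASCT2, was dim and its groups overlapped, at 137, 101 and 149 on control arrays and 133, 171 and 163 after TDP-43 siRNA. Its difference was 0.25 (SE 0.18). Slc38a2, the SNAT2 carrier induced by amino acid shortage, was at 0.04 (SE 0.06), with a 95% confidence interval from -0.09 to 0.17.

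The cytosolic aminoacyl-tRNA synthetases, which load amino acids onto their tRNAs, lay close to 0. Their median was 0.07 over 11 genes, beside 0.24 over the 24 other measured genes, and their differences ran from -0.12 to 0.16. Of the 11, 10 lay above 0, beside 55.0% of all genes. Over all genes 6.75% were higher at an unadjusted p below 0.05, and 9.98% were apart and higher. In this role 1 gene (9.09%) was both. That gene was Iars, the isoleucine enzyme, which read 3239.5, 3207 and 3442 on control arrays and 3587, 3656 and 3806 after TDP-43 siRNA, a difference of 0.16 (SE 0.06, limma adjusted p = 0.287).

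Yars, the tyrosine enzyme, read 1498, 1477 and 1603 on control arrays and 1595, 1629.6 and 1892 after TDP-43 siRNA, a difference of 0.16 (SE 0.08). Gars, the glycine enzyme, read 7733, 7689 and 8029 on control arrays and 7815, 8359 and 8790.0 after TDP-43 siRNA, a difference of 0.09 (SE 0.06). Nars, the asparagine enzyme, read 6255, 5930.0 and 6551 on control arrays and 6167, 6593 and 7205 after TDP-43 siRNA, a difference of 0.09 (SE 0.07). In all 3 the groups overlapped and TDP-43 siRNA replicate 3 was the highest array.

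Aars, Cars, Eprs, Lars, Sars and Tars, the enzymes for alanine, cysteine, glutamate with proline, leucine, serine and threonine, lay between 0.05 and 0.09, with standard errors from 0.07 to 0.14. Wars, the tryptophan enzyme, was the only synthetase below 0, at -0.12 (SE 0.10). Its mean signals were 1985 ± 155 and 1833 ± 231 (SD, n = 3).

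**Figure D3:**
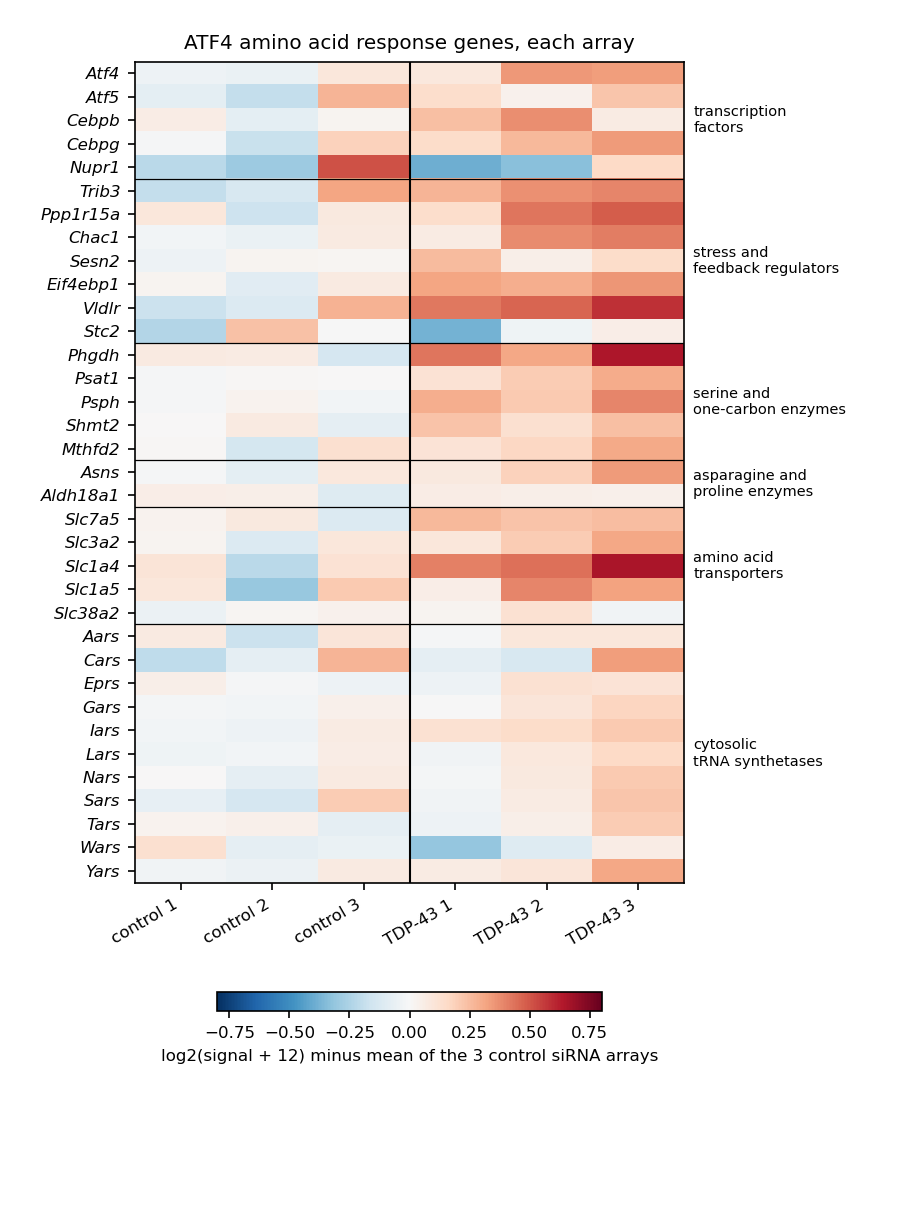
Log2 signal of each of the 35 genes on each of the 6 arrays, minus the mean of the 3 control siRNA arrays, in rows grouped by role. The TDP-43 siRNA columns are redder than the control columns for most genes above the tRNA synthetases, and the column of control replicate 3 is red for Nupr1, Trib3, Vldlr, Atf5 and Cars and blue for Phgdh and Slc7a5.

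The genes varied among arrays of one group as well. Averaged over all 35 genes, the deviation from each gene's mean over 6 arrays was -0.11, -0.15 and -0.01 on control arrays and 0.00, 0.08 and 0.18 on TDP-43 siRNA arrays. The groups did not overlap on this average, with control replicate 3 just below TDP-43 siRNA replicate 1. For the serine and one-carbon enzymes the gap was wider, with -0.12, -0.13 and -0.15 on control arrays against 0.10, 0.07 and 0.24. For the transcription factors the groups overlapped, since control replicate 3 stood at 0.15 and TDP-43 siRNA replicate 1 at -0.02. For the tRNA synthetases, too, control replicate 3 at 0.03 lay above TDP-43 siRNA replicates 1 and 2 at -0.07 and 0.02.

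**Figure D4:**
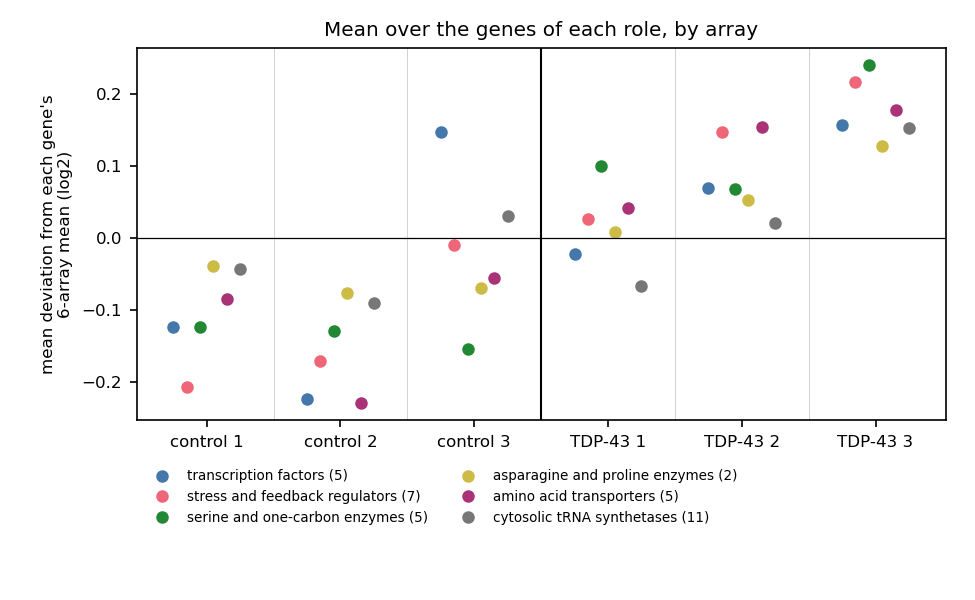
Mean over the genes of each role of the deviation from each gene's 6-array mean (log2), for every array, with the number of genes in brackets. Serine and one-carbon enzymes separate the groups most, while control replicate 3 overlaps the TDP-43 siRNA arrays for the transcription factors and tRNA synthetases.

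Within its group, TDP-43 siRNA replicate 3 was the highest array for 27 of the 35 genes, and TDP-43 siRNA replicate 1 the lowest for 24. Control replicate 3 was the highest control for 22 genes and the lowest for 7. It exceeded the mean of the other controls by 0.76 for Nupr1, 0.48 for Trib3, 0.42 for Vldlr, 0.41 for Cars and 0.40 for Atf5, and fell short of it for Phgdh (-0.21) and Slc7a5 (-0.16). The high values of this array for Trib3, Vldlr and Nupr1 stand beside its high Ldha, and the part of that in the results was not tested.

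Without control replicate 3, 3 genes of the list were called, all higher, where 1.12% of all genes were called higher. These were Vldlr at 0.63 (limma adjusted p = 0.00297, range over all 16 alternatives 0.00297 to 0.308), Trib3 at 0.50 (0.0182, range 0.0182 to 0.650) and Eif4ebp1 at 0.35 (0.0279, range 0.0279 to 0.207). Control replicate 3 exceeded the mean of the other controls by 0.48 for Trib3, 0.42 for Vldlr and 0.11 for Eif4ebp1. Leaving this array out therefore had to raise all 3 differences. The median over the 35 genes was 0.19 without this array, as it was with it. Eif4ebp1 was also called, at a limma adjusted p of 0.0464, when the filter left out the lowest 60% of probe sets, a setting under which 0.296% of genes were called higher.

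Most genes of the list are read by several probe sets, 79 in all past the filter for the 35 genes. In a fit over all 27022 probe sets, 0 of the 79 were called by limma, beside 158 of all probe sets (0.585%). On 26 of the 79 all TDP-43 siRNA arrays lay above all controls, beside 8.74% of all probe sets. On 1, a dim probe set of Slc38a2 at -0.17, they lay below all controls. Probe sets of the same gene are not separate genes, and Vldlr alone has 6 of the 79. Of the 24 genes with more than 1 probe set, 18 had the same sign on every one. The suffixes s and x mark probe sets whose probes can read more than 1 transcript. The brightest probe sets of Eif4ebp1, Vldlr, Trib3, Phgdh, Shmt2, Aldh18a1 and Wars carry the x. Those of Aars and Iars carry the s.

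All 6 probe sets of Vldlr lay above 0, between 0.35 and 0.66, and control replicate 3 was the highest control on each. The 4 of Phgdh, all with the x, lay between 0.24 and 0.46. A further 2 probe sets that also name a second gene were not used. The 3 of Eif4ebp1, brightest first, were at 0.32, 0.19 and 0.32, and none had overlapping groups. Only the brightest of them carries an x. The 2 of Atf4 past the filter were both at 0.25. The 3 of Cebpg lay between 0.25 and 0.26, and the 2 of Trib3 at 0.34 and 0.39.

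Other genes were less even. Slc1a4 was at 0.50, 0.27 and -0.13 on its 3 probe sets, so its largest difference holds for the brightest of them alone, and their average gave 0.21. Sesn2 was at 0.15 and 0.37, the dimmer probe set being the higher. Psat1 was at 0.20 and 0.13 and Mthfd2 at 0.19 and 0.15. Their dimmer probe sets had an unadjusted limma p of 0.0735 and 0.0970. Shmt2 was at 0.20 and 0.17 on its brighter pair and at -0.15 and -0.20 on its dim pair, which had standard errors of 0.23 and 0.53. All 4 probe sets of Wars lay below 0, from -0.16 to -0.07.

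**Figure D5:**
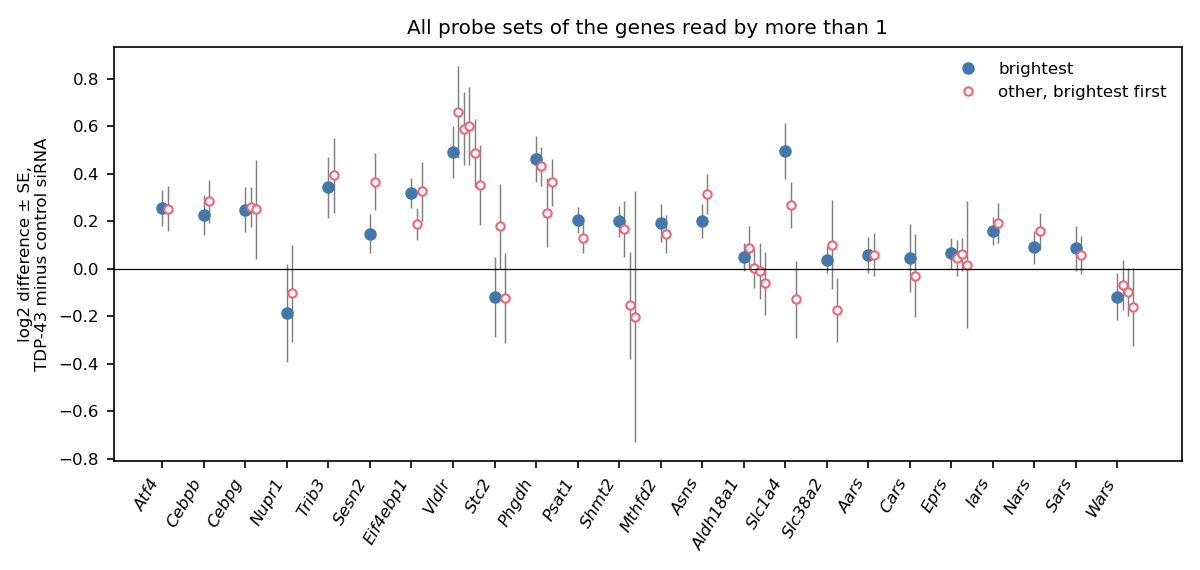
Log2 difference ± SE (n = 3 per group) of every probe set for the 24 genes read by more than 1, with the brightest as a filled point and the others as open points in order of brightness. The 6 probe sets of Vldlr lie between 0.35 and 0.66, whereas those of Slc1a4 run from 0.50 down to -0.13.

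The promoter letters shown above can be set beside the differences. The 11 measured genes with TGATGNAA had a median difference of 0.16, from -0.19 (Nupr1) to 0.50 (Slc1a4). The 17 measured genes with a promoter in the table and no match had a median of 0.20, from -0.12 to 0.46. The tRNA synthetases held the letters in 5 of 7 promoters and lay near 0. All 5 serine and one-carbon enzymes lacked them within this window and lay above 0. These values describe the printed promoter window and test nothing.

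Upstream of ATF4, 15 of 16 listed genes for eIF2 kinases, eIF2, eIF2B and their regulators were measured, with a median of 0.02. By limma 0 were called, beside 0.745% of all genes. Groups did not overlap for 2 higher and 2 lower, beside 9.98% and 8.32% of all genes. At an unadjusted p below 0.05 there was 1, where 12.6% of all genes were past it in either direction. That gene was Gcn1, which activates the amino acid sensing kinase GCN2, at -0.35 (SE 0.15), and averaging its probe sets gave 0.00704. Ppp1r15b, the constitutively made counterpart of Ppp1r15a, was at 0.12 (SE 0.06) and the eIF2 beta subunit Eif2s2 at -0.10 (SE 0.05). The kinase genes themselves, Eif2ak1 to Eif2ak4, lay between -0.16 and 0.06.

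Among 20 other genes linked to ATF4, 18 were measured and 2 rose, where 0.166% of all genes were called higher. The median was 0.19, and 15 lay above 0, beside 55.0% of all genes. At an unadjusted p below 0.05 there were 7 higher and 1 lower, beside 6.75% and 5.87% of all genes. Groups did not overlap for 6 higher and 2 lower, beside 9.98% and 8.32% of all genes. The genes apart and lower, named after their values were seen, were Gadd45a, a growth arrest and DNA damage gene, at -0.25 (SE 0.08) and Gpt2, the mitochondrial alanine transaminase, at -0.08 (SE 0.07). Slc7a3, a cationic amino acid carrier, read 1640.3, 1721 and 1527 on control arrays and 2339.9, 2326 and 2526 after TDP-43 siRNA (0.55, SE 0.07, limma adjusted p = 0.0069). It passed each time 1 of the 6 arrays was left out, and did not pass with no intensity trend (0.0770). Cth, which releases cysteine from cystathionine, read 497, 473 and 545 on control arrays and 892, 804 and 1241 after TDP-43 siRNA (0.92, SE 0.14, limma adjusted p = 0.0209). It did not pass without control replicate 1 (0.0982), control replicate 2 (0.0998) or TDP-43 siRNA replicate 1 (0.0638), and over all alternatives its adjusted p ran from 0.00491 to 0.140. That list, too, was drawn up with earlier results of these data known.

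Xpot, which exports tRNA from the nucleus, was at 0.21 (SE 0.05, limma adjusted p = 0.126). Ddit3 and Ddit4, the CHOP transcription factor and the mTORC1 inhibitor REDD1, were chosen after their values were seen because control replicate 3 stood apart on them as it did on Trib3. Ddit3 read 1459, 1200.3 and 2172 on control arrays and 1838, 2144 and 2151 after TDP-43 siRNA. Ddit4 read 1442, 1363 and 2637 on control arrays and 2508, 2510.2 and 2491 after TDP-43 siRNA. On both, control replicate 3 lay above every other array. Neither was called with all arrays, at 0.38 (SE 0.18) and 0.53 (SE 0.20). Without control replicate 3 both were, at 0.62 (limma adjusted p = 0.0222, range over alternatives 0.0222 to 0.713) and 0.83 (0.000642, range 0.000642 to 0.657). In that fit 1.12% of all genes were called higher. Since both genes were chosen for their high reading on this array, leaving it out had to raise their differences.

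Synthetase genes outside the 36 were also measured. Of 12 listed cytosolic synthetases outside the 36 and their scaffold proteins, 11 were measured, 1 fell and 0 rose, where 0.578% of all genes were called lower, and the median was -0.01. Hars, the histidine enzyme, read 4083, 4257 and 3338 on control arrays and 2712, 2652 and 2453 after TDP-43 siRNA (-0.57, SE 0.09, limma adjusted p = 0.0225). Of the fits that left out 1 array it passed in the one without control replicate 3 and in none of the other 5, where the adjusted p ran from 0.0697 to 0.118. With no filter and with no intensity trend it did not pass either (0.0677 and 0.146). Eef1e1, a scaffold protein of the synthetase complex, was at 0.14 (SE 0.08) and Farsa, a phenylalanine enzyme subunit, at 0.15 (SE 0.10).

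Of 17 mitochondrial synthetases 16 were measured, with a median of -0.05. By limma 1 fell and 0 rose, where 0.578% of all genes were called lower and 0.166% higher. At an unadjusted p below 0.05 there were 1 higher and 3 lower, beside 6.75% and 5.87% of all genes. Groups did not overlap for 1 higher and 3 lower, beside 9.98% and 8.32% of all genes. The higher gene, named after its value was seen, was Vars2 at 0.39 (SE 0.13). Lars2, the mitochondrial leucine enzyme, read 683, 605 and 546 on control arrays and 389, 352 and 375 after TDP-43 siRNA (-0.69, SE 0.10, limma adjusted p = 0.0141). It passed without control replicate 3 and in none of the other 5 fits that left out 1 array, where the adjusted p ran from 0.0512 to 0.0825, and averaging its probe sets gave -0.47 (adjusted p = 0.143). With no intensity trend its adjusted p was 0.0786. Hars2 was at -0.54 (SE 0.11, limma adjusted p = 0.0588) and Iars2 at -0.30 (SE 0.10), the latter turning to 0.27 when its probe sets were averaged. Of 9 listed enzymes of cytosolic folate and serine metabolism 6 were measured, with a median of 0.05. Among them 0 were called by limma and 0 were at an unadjusted p below 0.05, beside 0.745% and 12.6% of all genes. Mthfd1 was at -0.12 (SE 0.06), Srr at 0.20 (SE 0.13) and Mtr at 0.13 (SE 0.14).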

How the data were processed

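Per the labels' protocols, total RNA was converted to biotin-labelled cRNA by in vitro transcription from the 3' end, and each sample was read on 1 array. MAS5 was the authors' tool, per the submitters' processing notes, and which version was run is not known here. The deposited values are linear signal intensity, for 45101 probe sets. The mean of each array without its highest and lowest 2% was 500.003, as checked on the table. Precision is limited by the number of arrays.

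By the platform annotation 34945 probe sets carry 1 gene name, 932 carry several, 9160 are unnamed here and 64 are controls. Symbols were updated through Entrez numbers with RefSeq GRCm38.p6 (34741 matched). The value 12 (the table's 20th percentile, rounded) was added before log2. Controls and the dimmest 40% of probe sets (mean signal up to 41.5) were left out, and each gene was read by its brightest single-gene probe set. The comparison used limma 3.58.1 (R 4.3.3) with eBayes and its intensity trend. Its two-sided p-values were adjusted by Benjamini-Hochberg over all 12619 genes. Probe sets were fitted together in the same way.

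The genes, lists and alternatives were chosen with earlier results of these data known. The text names Tardbp, the 36 genes, and the 3 genes of smallest p in each further list. All 6 signals are given for Atf4 and for up to 4 genes of smallest p per role. On simulated data over 12619 genes for this comparison, 50 of 100 genes changed by 0.5 and 81 of 100 changed by 1 were recovered, and 6 unchanged genes were called. Smaller changes were not simulated, and the median difference of the 35 genes, 0.19, lay below both sizes. Alternatives covered the pseudocount, filter, normalization, variance model, use of probe sets, replicate number and single arrays. Figures were drawn with matplotlib 3.10.9. The sequences of 2 promoter matches, both of 1 gene, are not reported here.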

Additional observations from a re-analysis of the deposited data

How the results depend on the processing

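For the 35 genes, 546 of 559 values under the 16 alternatives kept their direction and their side of the threshold, 5 were called where they had not been, and 8 changed sign. With the mean of probe sets Slc38a2 turned to -0.0115 and, beyond the list, Gcn1 to 0.00704 and Iars2 to 0.27. With 1 array left out, the differences that changed sign ran from -0.00346 to 0.0733 for Slc38a2, from -0.0982 to 0.183 for Cars, from -0.0277 to 0.107 for Aars, from -0.361 to 0.0661 for Nupr1, from -0.000655 to 0.0771 for Aldh18a1 and from -0.236 to 0.0102 for Stc2. The list had 1 call with a 60% filter (Eif4ebp1) and 0 to 3 with 1 array left out, the 3 being without control replicate 3. Over all genes the count was 51 with no filter, 12 with no intensity trend, 61 with the mean of probe sets and 31 to 253 with 1 array left out, the highest without control replicate 3. Among other genes linked to ATF4 it was 1 with no filter, 0 with no intensity trend and 1 to 5 with 1 array left out. Among the other cytosolic synthetases it was 0 with no filter or no intensity trend and 0 to 1 with 1 array left out. Among mitochondrial synthetases it was 2 with a 60% filter, 0 with no intensity trend or the mean of probe sets, and 0 to 1 with 1 array left out. For these counts the cause was not tested.

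The labels do not state whether the replicate numbers pair the samples, and 3 arrays per group are too few to settle it. Deviations from the group means correlated at -0.12, -0.14 and 0.24 for same-numbered arrays. Only number 3 correlated best with its own number. With the replicate number as a block, 123 genes were called in place of 94, 1 gene of the list (Vldlr, limma adjusted p = 0.0212) and 2 mitochondrial synthetases. Quantile normalization and median centring left the median of all genes at 0.01. The dim genes Slc1a5 and Stc2 had standard errors of 0.18 and 0.17, beside a median of 0.08 over the 35 genes.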
